A study of Arabidopsis thaliana with 4 samples.

Results

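Seedlings of the Arabidopsis thaliana mutant rps2a2b were compared with seedlings of the wild type Col. The comparison rests on 3 of the 4 RNA-seq libraries in the study, 1 from rps2a2b and 2 from Col, chosen by their genotype label. The remaining library came from the mutant atprmt3 and is used here to separate changes that were present in rps2a2b alone. All plants were grown on MS medium with 1% sucrose at 22 °C in 16 h light and 8 h dark, carried no treatment beyond that, and were taken as whole seedlings at 12 days. The labels name neither the alleles nor the loci behind the genotype names, and they do not say how many plants went into a library. The question addressed by the series is how the protein arginine methyltransferase PRMT3 and the ribosomal protein RPS2B act in ribosome assembly. The Col libraries held 15646735 and 15637192 counts on genes, the atprmt3 library 18650053 and the rps2a2b library 15194770. Over 20569 genes with at least 10 counts the chi-square between both Col libraries averaged 0.989 per gene, where counting noise alone gives about 1, so they were summed and counted as 1 sample. Each genotype was therefore a single sample, no test across genes was possible, and a gene is called changed only by the size of its difference.

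RPS2 is a protein of the small, 40S ribosomal subunit that sits near the entry of the messenger RNA channel and joins the pre-ribosome in the nucleolus. PRMT3 is a cytosolic enzyme that methylates RPS2 in yeast and mammals. Arabidopsis keeps several RPS2 gene copies, and mutants of plant ribosomal proteins are known for pointed leaves, slow growth and altered stress responses.

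The RPS2 genes were read first, because they check the labels. RPS2A (AT1G58380, annotated on chr1:21688935-21690290 of TAIR10.1) had 167 counts in rps2a2b, 334 and 318 in Col and 580 in atprmt3. It was lower in rps2a2b than in every other library, by 1.06 ± 0.33 on the log2 scale against Col, where the error is that of read sampling widened by the spread seen between both mutant libraries. RPS2B (AT1G59359), together with the near-identical copies AT1G58684 and AT1G58983 beside it, had 0 counts in all 4 libraries. None of the sequence of these 3 genes is unique at a length of 50 bases, and 72.3% of that of RPS2A is, so the state of RPS2B could not be read from these counts. The level of RPS2A is uncertain for the same reason. RPS2D (AT3G57490) rose from 194 and 157 counts in Col to 380 in rps2a2b, a log2 change of 1.02 ± 0.32, and had 416 counts in atprmt3. RPS2C (AT2G41840) had 5266 and 5505 counts in Col, 7815 in atprmt3 and 6265 in rps2a2b, a log2 difference of 0.12 ± 0.06 against Col. Per kilobase of transcript, RPS2C stood at 296 CPM (counts scaled to library size) in rps2a2b, RPS2D at 19.3 and RPS2A at 8.46. PRMT3 itself had 237 and 254 counts in Col, 315 in rps2a2b and 132 in atprmt3, so its low count was found in the library labelled atprmt3.

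Genes were called measured where Col and rps2a2b averaged 5 CPM or more. Of these 15283 genes, 561 (3.67%) were at least 2-fold higher in rps2a2b and 375 (2.45%) at least 2-fold lower, 936 (6.12%) in all. In atprmt3, against the same Col libraries, 433 of these genes (2.83%) passed 2-fold upwards and 365 (2.39%) downwards. The filter works on the mean, so a gene with almost no counts in Col enters only where rps2a2b is high: of 554 genes under 5 CPM in Col, 273 were called higher. Among the 14729 genes at 5 CPM or more in Col, 288 (1.955%) were higher and 375 (2.55%) lower. Counts for gene lists are therefore also given over the members at 5 CPM or more in Col, to be read against these shares. Counts over all measured members of a list are to be read against the 3.67% higher and 2.45% lower of all measured genes. The direction depended on the level in Col. Of 1852 genes above 100 CPM in Col, 6 rose and 67 fell. The 6 that rose, picked out after their values were seen, were ICL for isocitrate lyase, LTP2 for a lipid transfer protein, EXT4 for an extensin, DHAR1 for a dehydroascorbate reductase, PRXCB for a peroxidase and AT1G54010 for a GDSL-type lipase. The median log2 difference over all measured genes was -0.02, and it moved to 0.12 when only total counts were used for scaling, which gave 809 genes higher and 240 lower. LSH6 (log2 1.00) lay just inside the 2-fold limit and MLP423 (0.9995) just outside it. On the lower side AT4G34760 was just inside and AT1G64590 (-0.999) just outside.

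**Figure D1:**
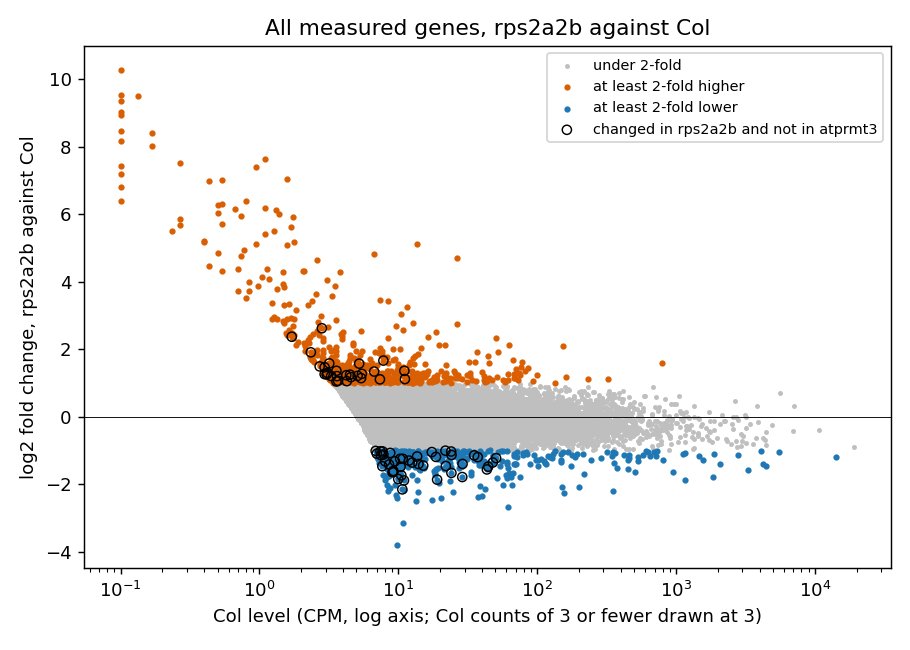
Level in Col (CPM, log axis) against log2 fold change of rps2a2b over Col for 15283 measured genes, each point being 1 gene of single samples, with Col counts of 3 or fewer drawn at 3. Genes at least 2-fold higher (561) or lower (375) are coloured, circles mark the 69 genes changed in rps2a2b and not in atprmt3, and the points with log2 values above 4 lie almost all at low Col levels.

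Genes changed in rps2a2b but not in atprmt3 were defined as at least 2-fold from Col, at least 2-fold the same way from atprmt3, and within 0.5 on the log2 scale of Col in atprmt3. There were 27 higher (0.177% of the measured genes) and 42 lower (0.275%). Both mutants were compared with the same Col libraries. All these genes had low or moderate levels: in Col the higher ones had between 1.71 and 11.2 CPM, and the lower ones between 6.87 and 50.6 CPM. Of the 27 higher genes, 24 lay more than 2 widened read-sampling errors from both Col and atprmt3, as did 33 of the 42 lower ones. The genes were chosen by their distance from these same samples, so these counts are no further evidence of a difference. Of the 27, 18 had under 5 CPM in Col and so were measured only through their level in rps2a2b. bHLH34 (log2 0.98) was just outside the limit among the higher genes and AT4G08940 (1.04) just inside, and among the lower genes AT3G50350 (-0.99) was outside and AT4G05070 (-1.01) inside.

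The largest of the higher genes was AT1G07985, an uncharacterized protein, with 2.95 and 2.68 CPM in Col, 3.43 in atprmt3 and 17.4 in rps2a2b. Its log2 change was 2.62 ± 0.57 against Col and 2.34 ± 0.49 against atprmt3. AT5G50360, annotated as a von Willebrand factor A domain protein, had 2.01 and 1.41 CPM in Col, 2.25 in atprmt3 and 8.92 in rps2a2b. The choice of these genes requires rps2a2b to stand apart from the other 3 libraries, here and in the genes that follow. AT5G01670, an NAD(P)-linked oxidoreductase, had 11.3 and 10.9 CPM in Col, 9.27 in atprmt3 and 28.4 in rps2a2b (log2 change 1.36 ± 0.31).

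Several of the 27 are regulators of growth and development. AIL5, an AP2-type transcription factor of the AINTEGUMENTA family that is active in young organs and embryos, had 153 and 180 counts in Col, 182 in atprmt3 and 385 in rps2a2b, a log2 change of 1.11 ± 0.32. GRF5 (AT3G13960), a growth-regulating factor that promotes cell proliferation in leaves, had 68 and 84 counts in Col, 104 in atprmt3 and 188 in rps2a2b (1.21 ± 0.47). MAF3, a MADS-box relative of the flowering repressor FLC, had 49 and 43 counts in Col, 68 in atprmt3 and 121 in rps2a2b (3.28 and 2.88 CPM in Col, 7.60 in rps2a2b). Of these 3 transcription factors, AIL5 and, narrowly, GRF5 had 5 CPM or more in Col, and MAF3 had fewer.

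Others act in metabolism, in organelles or at the cell surface. BFN1, a nuclease that degrades nucleic acids during senescence and programmed cell death, had 46 and 49 counts in Col, 62 in atprmt3 and 152 in rps2a2b, a log2 change of 1.58 ± 0.57. SUFE2, which activates the cysteine desulfurase of iron-sulfur cluster assembly, had 33 and 37 counts in Col, 58 in atprmt3 and 141 in rps2a2b (1.91 ± 0.65). CYP71A16, a cytochrome P450, and PEN1, a triterpene synthase, act in triterpene synthesis, and both rose. CYP71A16 had 123 and 110 counts in Col, 204 in atprmt3 and 394 in rps2a2b (1.66 ± 0.36), and PEN1 had 41 and 40 in Col, 64 in atprmt3 and 122 in rps2a2b (1.49 ± 0.63). In atprmt3 their log2 differences from Col were 0.48 ± 0.40 and 0.33 ± 0.70. MEF18, a mitochondrial RNA editing factor, rose by 1.27 ± 0.45, and AT1G19230, annotated as a riboflavin synthase-like protein, by 1.34 ± 0.40. The log2 changes of the wall-associated kinase AT4G31100, the RING finger gene AT3G27330, the GDSL lipase AT3G62280, ABCA4 for a transporter, AT4G15140, AT5G06811, AT3G48510 and AT2G25355 lay between 1.05 and 1.46.

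**Figure D2:**
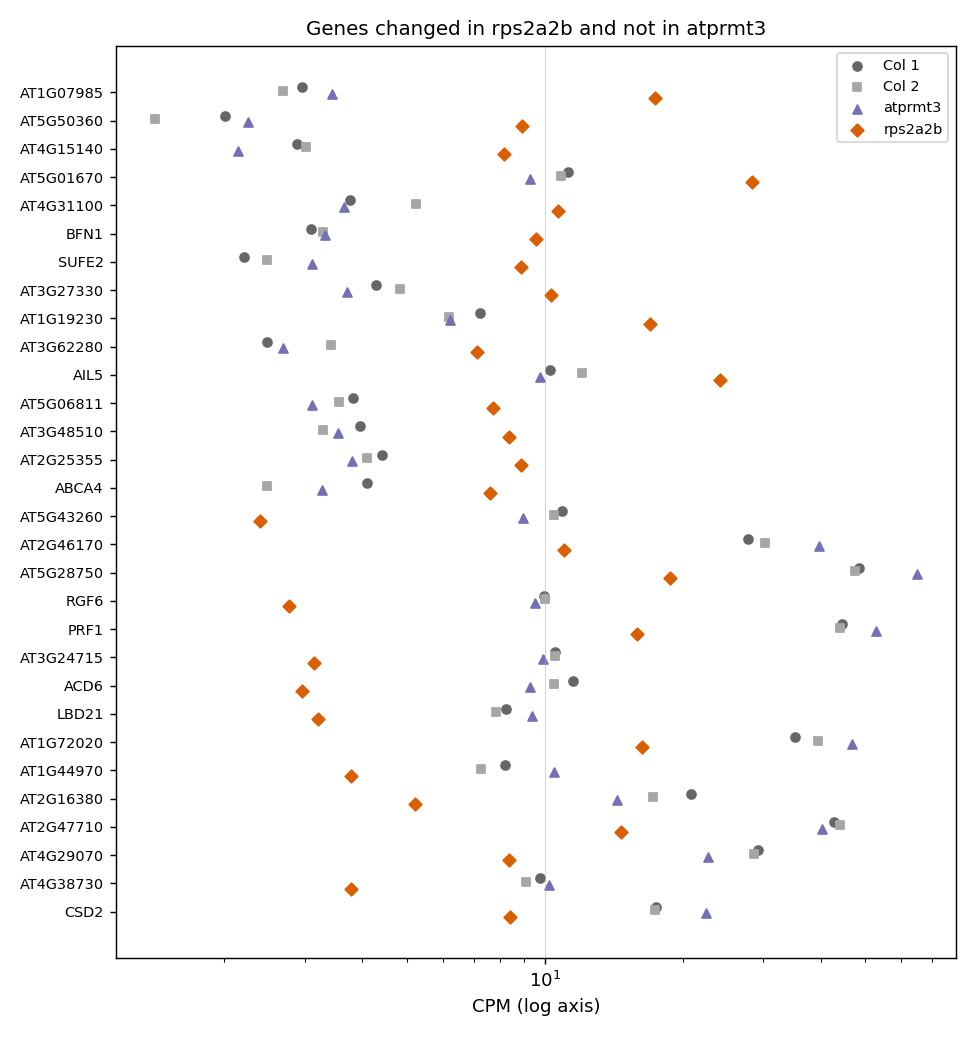
CPM on a log axis in each of the 4 libraries for the 15 highest and 15 lowest genes by the ratio of rps2a2b to atprmt3, among those changed in rps2a2b and not in atprmt3; there are no replicates of the mutants, so no error bars are drawn. In every row the rps2a2b diamond lies apart from the other 3 symbols, to the right for the upper 15 genes and to the left for the lower 15, as the choice of genes requires.

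Among the 42 lower genes, AT5G43260, annotated as a DnaJ-like chaperone protein, had 163 and 156 counts in Col, 167 in atprmt3 and 38 in rps2a2b, a log2 change of -2.15 ± 0.64. AT2G46170, of the reticulon family that shapes tubules of the endoplasmic reticulum, had 414 and 452 counts in Col, 739 in atprmt3 and 175 in rps2a2b (-1.40 ± 0.32). RER1B, which retrieves proteins to the endoplasmic reticulum in yeast, had 776 and 735 counts in Col, 845 in atprmt3 and 344 in rps2a2b (-1.23 ± 0.23).

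AT5G28750, a Tat/Hcf106-type protein of the sec-independent translocation family, which in chloroplasts carries folded proteins into the thylakoid, had 723 and 708 counts in Col, 1214 in atprmt3 and 298 in rps2a2b (-1.36 ± 0.24). CSD2, the plastid copper/zinc superoxide dismutase, had 261 and 259 counts in Col, 419 in atprmt3 and 134 in rps2a2b (-1.05 ± 0.37). On the copper list, CSD2 was the only gene of 7 measured that passed 2-fold. The other members were read beside it: CCS, the copper chaperone of these dismutases, stood at -0.73 ± 0.33, COPT2, a copper transporter, at 0.63 ± 0.34, and FSD1, the iron superoxide dismutase, at 0.61 ± 0.04.

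PRF1 encodes profilin 1, which binds actin monomers. It had 665 and 659 counts in Col, 988 in atprmt3 and 253 in rps2a2b, a log2 change of -1.48 ± 0.26. RGF6, a secreted peptide that maintains the root meristem, had 149 and 149 counts in Col, 178 in atprmt3 and 44 in rps2a2b (-1.84 ± 0.60). ESB1, a dirigent protein needed to form the Casparian strip of the endodermis, had 513 and 537 counts in Col, 615 in atprmt3 and 253 in rps2a2b (-1.15 ± 0.27). MYB68, a root transcription factor, had 151 and 170 counts in Col, 205 in atprmt3 and 72 in rps2a2b (-1.25 ± 0.50). These 3 genes were not chosen as a list: on the list of root markers the summed level was 204 CPM in Col, 150 in atprmt3 and 128 in rps2a2b, so it was lower in both mutants. Fewer root cells and less RNA per root cell cannot be told apart in whole seedlings.

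The remaining lower genes included ACD6, an ankyrin protein of salicylate-dependent defence, at -1.89 ± 0.58 (172 and 156 counts in Col, 173 in atprmt3 and 47 in rps2a2b), and OZS1, also known as SLAC1, the guard cell anion channel, with 187 and 169 counts in Col, 208 in atprmt3 and 77 in rps2a2b. DDB2, which recognises ultraviolet-damaged DNA, stood at -1.48 ± 0.54, BCAT-1, a branched-chain amino acid transaminase, at -1.18 ± 0.44, and NF-YC1, a subunit of the CCAAT-binding factor, at -1.03 ± 0.32. LBD21 and HAT14, both transcription factors, stood at -1.32 ± 0.59 and -1.01 ± 0.59, within about 2 errors of Col. AT3G24715, AT1G72020, AT2G16380, AT2G47710, AT4G29070, AT4G38730 and AT1G44970 lay between -1.86 and -1.03.

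A further 5 genes moved 2-fold in rps2a2b and by at least 0.5 the other way in atprmt3. RPS2A was among them. AT4G29020, a glycine-rich protein, had 2348 and 2284 counts in Col, 4551 in atprmt3 and 512 in rps2a2b, so it lay at 157, 153, 244 and 32.2 CPM. Its log2 difference from Col was -2.27 ± 0.17 in rps2a2b and 0.65 ± 0.09 in atprmt3. AT3G19030 stood at -1.21 ± 0.45 in rps2a2b and 0.60 ± 0.31 in atprmt3, and AT1G80890 at 1.07 ± 0.53 and -0.65 ± 0.67.

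The fifth was ICL, isocitrate lyase, an enzyme of the glyoxylate cycle that lets germinating seedlings turn stored oil into sugar. It had 2448 and 2392 counts in Col, 1286 in atprmt3 and 5818 in rps2a2b, or 164, 160, 68.9 and 365 CPM. Its log2 difference from Col was 1.17 ± 0.08 in rps2a2b and -1.24 ± 0.12 in atprmt3. MLS, malate synthase, the partner enzyme of that cycle, had 113 and 108 counts in Col, 305 in atprmt3 and 1298 in rps2a2b, a log2 change of 3.46 ± 0.34. It was higher in both mutants, by 1.14 ± 0.38 in atprmt3. The list of 10 genes of oil mobilisation to which they belong was drawn up after these values were seen. Its other 8 members did not pass 2-fold in rps2a2b and ranged from -0.84 for SDP1, a lipase of the oil body, to 0.90 for PMDH1, a peroxisomal malate dehydrogenase. PCK1, which leads from the cycle to sugar, had 5501 and 5414 counts in Col, 8083 in atprmt3 and 8720 in rps2a2b.

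Genes of seed maturation held the largest rises. They encode storage proteins, oil body proteins and late embryogenesis abundant (LEA) proteins, which protect cells during drying, and most of them are known for expression late in seed development. Of 21 genes on the lists of seed storage, oil body and late embryogenesis genes, 20 had a higher CPM in rps2a2b than in Col and 1, SESA4, had 0 counts in all libraries. For SESA3 the difference was 2 counts against 0, under the 3 counts taken as the floor. By the same count, 19 of the 21 were higher in rps2a2b than in atprmt3. The level filter was passed by 13, of which 10 passed only through rps2a2b, so no share is drawn from them. These lists were chosen with their direction in the same libraries known, so they are no independent evidence of it.

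EM1, a small LEA protein, had 1 and 3 counts in Col, 282 in atprmt3 and 1792 in rps2a2b. The ratio of rps2a2b to Col was 840, with an exact 95% counting interval from 327 to 3085, and the log2 difference from atprmt3 was 2.90 ± 0.23. PAP85, a vicilin-type storage protein, had 7 and 9 counts in Col, 89 in atprmt3 and 704 in rps2a2b, and its log2 difference from atprmt3 was 3.21 ± 0.40. CRA1, a cruciferin storage protein, had 369 and 416 counts in Col, 6440 in atprmt3 and 10781 in rps2a2b. For it the mutants lay closer together, with a log2 difference between them of 0.97 ± 0.06.

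CRU3, another cruciferin, had 196 and 208 counts in Col, 5100 in atprmt3 and 7494 in rps2a2b (log2 change 5.12 ± 0.24). OLEO1, an oleosin of the oil body surface, had 6 and 10 counts in Col, 413 in atprmt3 and 1155 in rps2a2b. SESA1, a 2S storage albumin, had 0 counts in both Col libraries, 112 in atprmt3 and 243 in rps2a2b, and was at least 152-fold higher than the level of 3 counts over both Col libraries. For all of these genes the order of the libraries was the same, with Col lowest and rps2a2b highest. EM6 had 15 and 10 counts in Col, 31 in atprmt3 and 219 in rps2a2b, and differed from atprmt3 by 3.03 on the log2 scale. RAB18 (AT5G66400), a dehydrin that is also induced by abscisic acid in leaves, had 2716 and 2794 counts in Col, 2829 in atprmt3 and 4539 in rps2a2b and did not pass 2-fold.

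**Figure D3:**
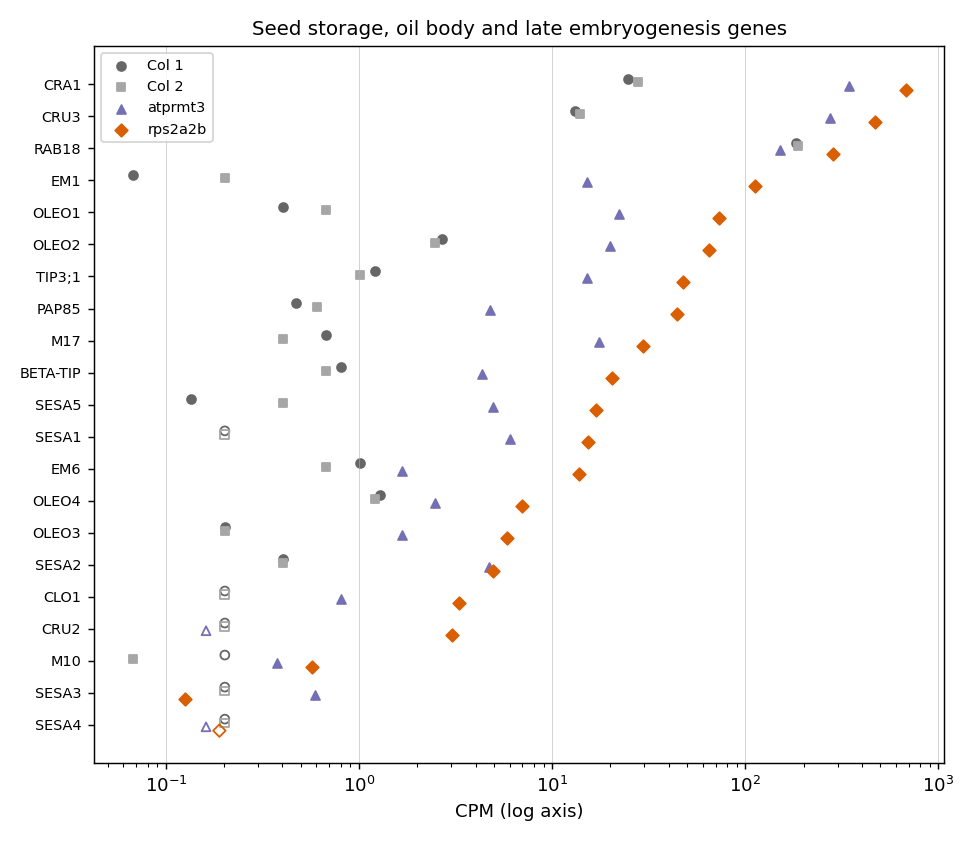
CPM on a log axis in each of the 4 libraries for the 21 seed storage, oil body and late embryogenesis genes; open symbols are libraries with 0 counts, drawn at 3 counts of that library. The rps2a2b diamond lies right of both Col symbols for every gene but SESA3, where 2 counts in rps2a2b fall below the level drawn for 0 counts in Col, and SESA4, where all libraries are at 0; SESA3 and M10 had at most 11 and 9 counts in any library.

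The promoters of the 4 listed genes with the largest log2 change are shown because 2 short elements recur in seed promoters: the RY core, read by B3 factors such as ABI3, and the ABRE core, read by bZIP factors such as ABI5. The 250 bases before the annotated start were read 5′ to 3′ on the strand of the gene from the TAIR10.1 genome (RefSeq), at chr3:19214472-19214721 (+ strand) for EM1, chr4:13607079-13607328 (+ strand) for SESA1, chr4:12900180-12900429 (+ strand) for OLEO1 and chr3:8013942-8014191 (- strand) for PAP85. Capitals mark each match to CATGCA or ACGTG on either strand, and overlapping matches were joined.
EM1: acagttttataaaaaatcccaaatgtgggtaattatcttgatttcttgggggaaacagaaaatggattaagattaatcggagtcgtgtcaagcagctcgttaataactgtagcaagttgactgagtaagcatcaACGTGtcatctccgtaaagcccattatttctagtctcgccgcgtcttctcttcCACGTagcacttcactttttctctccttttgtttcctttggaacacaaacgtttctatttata
SESA1: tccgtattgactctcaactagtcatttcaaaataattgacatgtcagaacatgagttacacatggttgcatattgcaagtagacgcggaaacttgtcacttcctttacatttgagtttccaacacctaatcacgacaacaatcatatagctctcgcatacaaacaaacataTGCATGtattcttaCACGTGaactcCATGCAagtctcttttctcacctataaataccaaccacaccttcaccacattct
OLEO1: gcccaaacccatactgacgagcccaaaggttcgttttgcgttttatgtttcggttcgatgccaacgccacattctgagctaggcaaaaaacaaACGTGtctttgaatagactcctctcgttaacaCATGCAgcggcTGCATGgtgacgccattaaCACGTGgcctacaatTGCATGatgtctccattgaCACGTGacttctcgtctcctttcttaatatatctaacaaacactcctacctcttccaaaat
PAP85: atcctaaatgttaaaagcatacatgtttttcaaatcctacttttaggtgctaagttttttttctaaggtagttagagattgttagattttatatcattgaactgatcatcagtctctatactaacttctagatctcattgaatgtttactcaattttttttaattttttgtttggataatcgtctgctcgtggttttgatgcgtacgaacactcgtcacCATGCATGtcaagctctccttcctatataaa
EM1 held 0 matches to CATGCA and 2 to ACGTG, SESA1 held 2 and 2, OLEO1 held 3 and 5, and PAP85 held 2 and 0. A palindrome such as CACGTG counts on both strands, as 2 matches. In a window from 250 bases before to 50 after the start, CATGCA was found in 15 of the 21 listed promoters (71.4%) against 9.72% of 27443 protein-coding genes, and ACGTG in 15 (71.4%) against 26.7%. Among the genes at least 2-fold higher in rps2a2b these shares were 15.2% and 39.8%, among those at least 2-fold lower 12.2% and 32.4%, and among all measured genes 7.91% and 27.9%. The 42 genes lower in rps2a2b but not in atprmt3 held ACGTG in 40.5% and CATGCA in 9.52%. A match describes the letters in this window and is no evidence of binding.

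Known regulators of seed maturation were read beside the listed genes, and whether they acted on those genes here was not tested. ABI3 had 2 and 2 counts in Col, 58 in atprmt3 and 126 in rps2a2b, and its mean stayed under the 5 CPM filter. ABI5 had 99 and 116 counts in Col, 167 in atprmt3 and 243 in rps2a2b, a log2 change of 1.08 ± 0.40. LEC1 and LEC2, which start embryo development, had 0 counts in all 4 libraries. FUS3 had 12 and 9 counts in Col, 14 in atprmt3 and 7 in rps2a2b, so it was not higher in rps2a2b. Beyond the lists, 87 genes are annotated as late embryogenesis abundant, a group gathered after seeing the values, and 51 of them had a higher CPM in rps2a2b than in Col and 23 a lower one. Of the 23 that had 5 CPM or more in Col, 3 were at least 2-fold higher and 0 lower. AT3G15670 and AT2G42560, both of this group, had 223 and 163 CPM in rps2a2b, 46.1 and 21.6 in atprmt3 and no more than 1.27 in a Col library.

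The 12 highest genes by log2 change were AT1G72100, AT5G66780, EM1, SESA1, AT1G04560, AT1G27990, AT2G18540, AT4G21020, MRD1, AT2G21490, AT3G15670 and AT4G36600. The majority are annotated as LEA proteins, SESA1 is a storage albumin and AT2G18540 belongs to the cupins, the fold of the cruciferins. All had at most 33 counts over both Col libraries, so their fold changes are poorly bounded from above. MRD1 differed from the others: it had 0 and 1 counts in Col, 412 in atprmt3 and 260 in rps2a2b, so it was not higher in rps2a2b than in atprmt3. There were 12 genes with 0 counts in Col and at least 100 in rps2a2b. AT1G72100 had 459 counts in rps2a2b and 107 in atprmt3, at least 287-fold above the level of 3 Col counts, and AT3G22490, annotated as a seed maturation protein, had 150 and 19, at least 93.7-fold above it.

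Among the 12 lowest genes, PR2, a glucanase of salicylate defence, had 160 and 133 counts in Col, 19 in atprmt3 and 11 in rps2a2b, a log2 change of -3.78 ± 1.09. MYBL2, a repressor of anthocyanin synthesis, had 905 and 927 counts in Col, 269 in atprmt3 and 154 in rps2a2b (-2.66 ± 0.31). HFR1, a light-signalling factor that restrains shade growth, had 633 and 570 counts in Col, 169 in atprmt3 and 127 in rps2a2b (-2.33 ± 0.35). These 3 were low in both mutants, each of which was compared with the same Col libraries. PGL5, a phosphogluconolactonase, AT3G46370, AT4G22475, AT5G54585 and AT5G62280 were also below Col by more than 1.9 on the log2 scale in both mutants. AT3G55710, AT5G02540 and AT1G67865 were lower in rps2a2b than in atprmt3, by 1.31 ± 0.58, 1.42 ± 0.75 and 1.19 ± 0.39 on the log2 scale. No gene with at least 100 counts in Col was at 0 in rps2a2b. The largest count lost was that of TPS03, a terpene synthase, with 54 and 43 counts in Col, 5 in atprmt3 and 0 in rps2a2b, at least 17.3-fold below Col against 3 counts.

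Genes of sulfur and phosphate starvation rose, while the iron and nitrate lists held no gene past 2-fold upwards. On the sulfur list 5 of 7 measured genes rose and 0 fell, with a median log2 difference of 1.26 against -0.02 over all measured genes. Of these 7, SDI1 and LSU1 were measured only through rps2a2b, and 3 of the 5 at 5 CPM or more in Col rose. SDI1, a marker of sulfur deficiency, had 45 and 61 counts in Col, 491 in atprmt3 and 417 in rps2a2b, and APR1 and APR3, which reduce activated sulfate, rose by 1.29 ± 0.12 and 1.26 ± 0.13. On the phosphate list 6 of 9 rose and 0 fell (median 1.15), and 4 of the 7 at 5 CPM or more in Col rose. PS2 (AT1G73010), a phosphatase, had 49 and 44 counts in Col, 310 in atprmt3 and 313 in rps2a2b, and the transporter PHT1;4 rose by 1.36 ± 0.23. In atprmt3 the medians of these lists against the same Col libraries were 1.11 and 1.15, so they did not set rps2a2b apart. The iron list had 0 of 9 higher and 1 lower, FRO4 (a ferric reductase) at -1.19 ± 0.31, and the nitrate list had none of 4 on either side. The median of the nitrate list changed sign with total-count scaling, from -0.05 to 0.09.

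**Figure D4:**
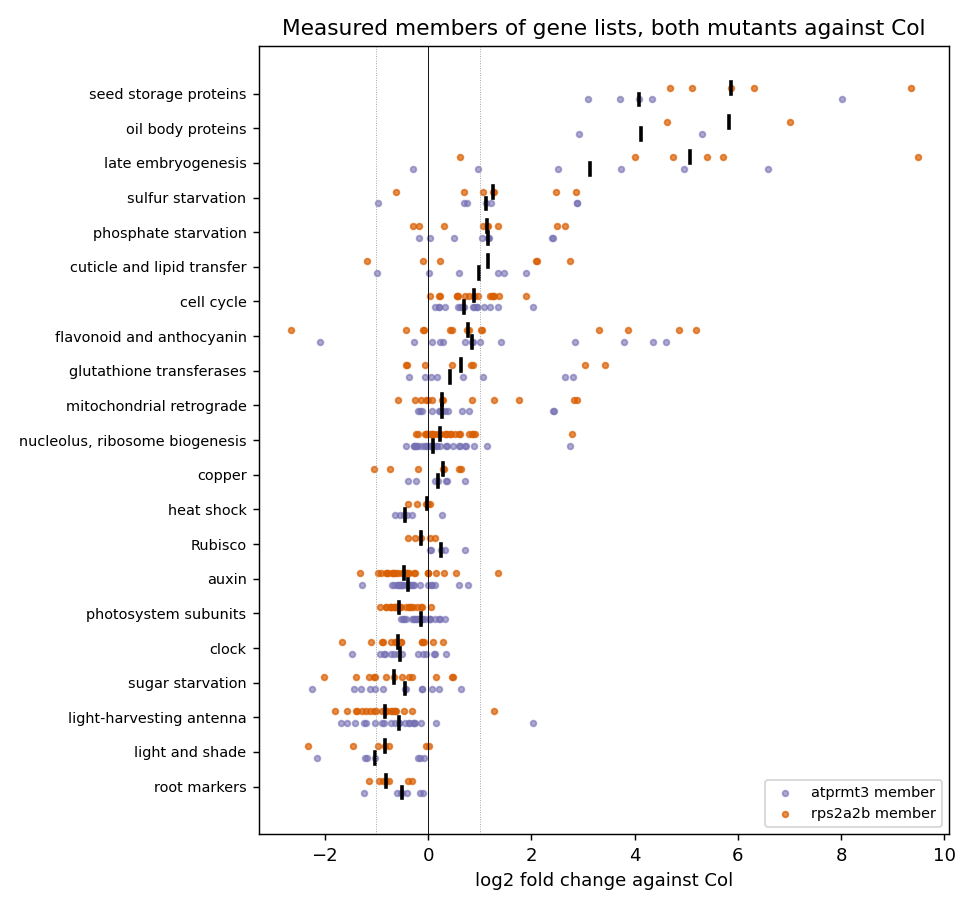
Log2 fold change against Col of each measured member of 21 gene lists in rps2a2b (orange) and atprmt3 (purple), with black bars at the list medians and dotted lines at 2-fold. The seed lists reach a log2 value of 9.48 in rps2a2b and their medians lie right of those of atprmt3, while the medians of both mutants nearly coincide for sulfur (1.26 and 1.11) and phosphate starvation (1.15 and 1.15).

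Some genes of the plant surface and of flavonoid synthesis rose as well. On the cuticle list 3 of 6 measured genes rose and 1 fell, against 3.67% and 2.45% over all measured genes. The median was 1.16, against 0.98 in atprmt3, where 3 rose and 0 fell. LTP4, a lipid transfer protein, had 385 and 408 counts in Col, 1275 in atprmt3 and 2831 in rps2a2b, a log2 change of 2.74 ± 0.18 that exceeded that of atprmt3 by 1.38 ± 0.12. LTP3 and LTP2 rose by 2.12 ± 0.22 and 2.09 ± 0.08, and CER1, an enzyme of wax alkane synthesis, fell to -1.18 ± 0.07. On the flavonoid list 6 of 14 rose and 1, MYBL2, fell (median 0.77, against 0.86 in atprmt3). Of these 14, 4 were measured only through rps2a2b, and 2 of the 10 at 5 CPM or more in Col rose. UGT79B1, an anthocyanin glycosyltransferase, had 4 and 8 counts in Col, 163 in atprmt3 and 246 in rps2a2b, and LDOX and DFR, late enzymes of anthocyanin synthesis, had 243 and 232 counts in rps2a2b and at most 11 and 18 in a Col library.

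Among the ribosomal protein genes gathered by product name, 1 in each subunit passed 2-fold. RPS2A, which fell (-1.06), and RPS2D, which rose (1.02), were not in these groups. Of 23 measured small-subunit ribosomal protein genes with eukaryote-type names, 1 rose and 0 fell, with a median log2 difference of 0.45, and of 58 large-subunit genes 1 rose and 0 fell, with a median of 0.51. The corresponding medians in atprmt3 were 0.51 and 0.56. RPSAb had 98 and 105 counts in Col, 190 in atprmt3 and 233 in rps2a2b, and AT3G55750, of the L35Ae family, had 639 and 621, 1748 and 1469. The telo box AAACCCTA lay in the window around the start of 44.9% of these 98 genes, including those too low to measure, against 6.22% of all protein-coding genes. On the nucleolar list 1 of 27 rose, near the 3.67% over all measured genes. It was NUC2 (a nucleolin), the 1 member measured only through rps2a2b, with 40 and 39 counts in Col, 337 in atprmt3 and 294 in rps2a2b, and the median was 0.24. NOP56, a box C/D snoRNP core protein, and FIB2, a fibrillarin, stood at 0.87 ± 0.10 and 0.80 ± 0.23. On the cell cycle list 6 of 17 rose and 0 fell (median 0.88, against 0.69 in atprmt3). Of the 15 at 5 CPM or more in Col, 4 rose. The mitotic cyclin CYCB1;1 had 40 and 45 counts in Col, 220 in atprmt3 and 169 in rps2a2b, and CDC20.1 and the kinesin HIK rose by 1.28 ± 0.23 and 1.23 ± 0.24. On the list of cell cycle inhibitors and DNA damage genes, PARP2, a DNA break sensor, rose by 1.32 ± 0.39 as 1 of 8.

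Among genes of photosynthesis, those of the light-harvesting antenna fell. On the antenna list 9 of 21 fell and 1 rose, against 2.45% and 3.67% over all measured genes. The median was -0.84, against -0.57 in atprmt3, where 6 fell and 1 rose. LHCB1.4 had 27387 and 27621 counts in Col, 11656 in atprmt3 and 8444 in rps2a2b, and LHCB2.1 had 30814 and 30728, 16332 and 12459. LHCB4.3, a minor antenna protein, rose, with 76 and 93 counts in Col, 433 in atprmt3 and 220 in rps2a2b. Of 23 photosystem subunit genes none passed 2-fold, yet 22 lay below Col (median -0.57, against -0.14 in atprmt3). PSBO2 of the oxygen-evolving complex was the nearest to the limit, with 20038 and 20421 counts in Col, 26147 in atprmt3 and 11267 in rps2a2b. None of the 5 genes of the Rubisco list passed 2-fold, with 3 below Col and 2 above. Their median of -0.14 moved to -0.008 with total counts and to -7.3e-07 once the trend on length and GC content was removed. The 14 measured genes of chlorophyll synthesis had a median of -0.44 with none past 2-fold.

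Of 26 measured auxin genes 1 rose and 1 fell (median -0.46, against -0.39 in atprmt3), near the 3.67% and 2.45% over all measured genes. TAA1, an auxin synthesis enzyme, rose by 1.35 ± 0.36 and IAA1, an early auxin-induced repressor, stood at -1.32 ± 0.57. Of 14 measured SAUR genes, small auxin-induced growth genes grouped after seeing the values, 6 fell and 0 rose (median -0.74, against -0.37 in atprmt3). SAUR20 had 133 and 121 counts in Col, 56 in atprmt3 and 31 in rps2a2b. On the light and shade list 2 of 7 fell, HFR1 and PAR1 (-1.46 ± 0.61), and in atprmt3 4 fell (medians -0.84 and -1.02). The clock list had 2 of 14 lower, LNK2 (-1.67 ± 0.22) and CHE (-1.10 ± 0.19), and 1 lower in atprmt3 (medians -0.58 and -0.55). Of the evening gene ELF4 there were 472 and 431 counts in Col, 722 in atprmt3 and 291 in rps2a2b. On the sugar starvation list 5 of 13 fell and 0 rose (median -0.66), and in atprmt3 5 fell and 0 rose (median -0.44). ASN1, an asparagine synthetase induced in the dark, had 1011 and 947 counts in Col, 257 in atprmt3 and 257 in rps2a2b. SOC1, a promoter of flowering, fell to -2.13 ± 0.32, and SMZ, a repressor of flowering, rose by 2.17 ± 0.65 from under 5 CPM in Col.

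On the mitochondrial retrograde list, genes that respond to impaired mitochondria, 4 of 13 measured genes rose and 0 fell (median 0.28). Of the 13, 4 were measured only through rps2a2b, and 1 of the 9 at 5 CPM or more in Col rose. The median was 0.18 without Col replicate 1 and 0.17 without replicate 2. AT2G21640, annotated as a marker for oxidative stress response, had 23 and 17 counts in Col, 135 in atprmt3 and 160 in rps2a2b, and UGT74E2, a glycosyltransferase, had 21 and 23, 152 and 168. GSTU25 had 39 and 30 counts in Col, 68 in atprmt3 and 125 in rps2a2b, and NDA2, an alternative NADH dehydrogenase, rose by 1.28 ± 0.46. AOX1A, the alternative oxidase most used as a marker, was close to Col, with 475 and 496 counts in Col and 472 in rps2a2b. The mitochondrial dysfunction motif, read on both strands by its usual consensus, lay in 8 of the 18 listed promoters (44.4%) against 2.14% of all protein-coding promoters. That share describes a list chosen for this response and is no evidence that the response was active in rps2a2b. Of the glutathione transferases 2 of 8 rose, against 3.67% of all measured genes, and 3 rose in atprmt3. GSTF6 had 131 and 119 counts in Col, 1099 in atprmt3 and 1431 in rps2a2b, and GSTF7 had 160 and 151, 1219 and 1371.

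Several stress lists had no member past 2-fold in rps2a2b: 6 measured heat shock genes, 8 of the unfolded protein response, 8 of hypoxia (median -0.52), 7 of early stress factors, 4 of senescence, 5 of the stomatal lineage and 2 of cytokinin. The heat shock median changed sign with total-count scaling, from -0.03 to 0.11. On the jasmonate list 2 of 11 rose, AOC1 (1.79 ± 0.28) and CORI3 (1.07 ± 0.14), with a list median of 0.32, against 0.58 in atprmt3. The following single genes are to be read against the 3.67% of all measured genes that rose, and KIN1, STM, PAD3, XTH18 and GA3OX1 were measured only through rps2a2b. KIN1 (1.82 ± 0.53) rose as 1 of 12 cold and abscisic acid genes, MAM3 (1.62 ± 0.17) as 1 of 26 glucosinolate genes and the meristem gene STM (76 and 52 counts in Col, 169 in rps2a2b) as 1 of 12 leaf polarity and meristem genes. PAD3, of camalexin synthesis, rose from 56 and 63 counts in Col to 146 in rps2a2b while PR2 fell, out of 7 salicylate and defence genes. On the cell wall list 2 of 18 rose, XTH18 and XTH31, and 2 fell, the expansins EXPA8 (-1.71 ± 0.12) and EXPA5 (-1.35 ± 0.22). CPD, of brassinosteroid synthesis, fell to -1.27 ± 0.11, and GA3OX1, of gibberellin synthesis, rose by 1.09 ± 0.59, out of 4 measured genes.

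Markers of organs were read as a check on the labelled tissue and on the makeup of the seedlings. The 4 green shoot markers were present in every library, at a summed level of 36305 CPM in Col, 30617 in atprmt3 and 24048 in rps2a2b. Of 16 root markers, 12 were below Col in rps2a2b and 4 above; their summed level was 204 CPM in Col, 150 in atprmt3 and 128 in rps2a2b. Of the 7 measured root markers ESB1 fell and the others stood between -0.94 (TIP2;3) and -0.31 (SHR, a root patterning factor). By contrast all 6 root hair markers were above Col, with a summed level of 80.6 CPM in Col, 95.5 in atprmt3 and 153 in rps2a2b. Only 2 of them were measured, at log2 changes of 1.21 and 0.26, and the others stayed under the 5 CPM filter. The 1 past 2-fold was PRP3, a root hair cell wall protein, which made up most of the rise in the sum. PRP3 had 625 and 605 counts in Col, 990 in atprmt3 and 1519 in rps2a2b. The 6 seed markers summed to 40.7 CPM in Col, 665 in atprmt3 and 1356 in rps2a2b. The flower markers summed to 4.56, 6.64 and 3.83 CPM, and AP1 had 0 counts in all libraries. The part of these marker levels in the other results was not tested.

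The changed genes were spread over the genome. The share of measured genes at least 2-fold higher was between 3.37% on chromosome 1 and 4.26% on chromosome 4, and the share lower between 2.11% on chromosome 5 and 3.48% on chromosome 2. Within 500 kb of RPS2A and RPS2B on chromosome 1, 4 of 113 measured genes were higher and 2 lower, RPS2A included, and 0 of the genes changed in rps2a2b but not in atprmt3 lay there. Among 19375 nuclear genes with at least 20 counts in Col, no more than 2 neighbours in a row had 0 counts in rps2a2b.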

How the data were processed

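RNA-seq of whole seedlings was analysed from the deposited tables of raw counts per gene, 1 table per library. Libraries were strand-specific and made by the dUTP method, per the labels' protocols. The submitters' processing notes name TopHat2, HTSeq, edgeR and TAIR10 without versions. The strand setting of the counting is not given in the sources used here, so a gene and an antisense partner may share counts. Of 33341 gene IDs in the deposited count tables, 33056 matched the RefSeq annotation of TAIR10.1, which gave names and promoters. Summary lines were left out. They included reads in no gene (1.37% to 1.80% of all counts, summary lines included) and reads that mapped more than once (6.73% to 7.16%).

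Counts were scaled with TMM factors (edgeR 4.0.16, R 4.3.3), and both Col libraries were summed. Log2 fold changes used a prior of 0.5 counts. Measured genes had a mean of at least 5 CPM in Col and rps2a2b, and a gene was called at 2-fold. The ± is the error of read sampling, widened by a variance factor of 6.12 for a mutant library and 11.24 for the summed Col libraries. The factor was taken from the spread between both mutant libraries over genes with 10 to 99 summed counts, so it includes differences between these genotypes. It was applied to genes of every level and was not checked at higher counts, where the ± may be too narrow. The ± is no measure of variation between plants, and counting intervals and floors cover counting error only. The fold rule was run on simulated counts with read-sampling noise alone and changes larger than 2-fold. That noise is smaller than the spread in these data, so the run gives no rate of wrong calls here. The tables were made with Python 3.11.15, pandas 2.3.3 and scipy 1.17.1. Alternatives included DESeq2 1.42.0 and tests on all 4 libraries, whose spread comes from the Col libraries alone.

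The genes named were the RPS2 family and PRMT3, the 12 highest and 12 lowest genes, the 15 highest and 15 lowest of those changed in rps2a2b and not in atprmt3, and the leading members of each list. Other genes of that set (CYP71A16, PEN1, MEF18, GRF5, MAF3, MYB68, ESB1, RER1B, OZS1, DDB2, BCAT-1, NF-YC1 and HAT14) were chosen after their values were seen. So were the groups made from product names and the oil mobilisation list. The members and all lists were chosen with earlier results of these data known.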

Additional observations from a re-analysis of the deposited data

Results flagged for a closer look

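In 5 genes rps2a2b was at least 2-fold from Col and atprmt3 differed from Col by at least 0.5 on the log2 scale the other way. Each mutant is 1 library and both were compared with the same Col libraries, so the difference between the mutants was not tested. AT4G29020, stood at -2.27 on the log2 scale in rps2a2b and at 0.65 in atprmt3. AT3G19030 stood at -1.21 and 0.60, and RPS2A at -1.06 and 0.51. AT1G80890 stood at 1.07 and -0.65, with 136 counts in rps2a2b and 48 in atprmt3. ICL stood at 1.17 and -1.24, with widened read-sampling errors of 0.08 and 0.12.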

How the results depend on the processing

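With DESeq2 or upper-quartile factors, a prior of 5 counts, or genes with at least 90% unique sequence (added after seeing the data), the counts of genes higher, lower, and changed in rps2a2b but not in atprmt3 stayed within 1.5 times the reported 561, 375, 27 and 42. With total counts, 240 genes were lower, and 46 were higher in rps2a2b but not in atprmt3. A mean of at least 1 CPM gave 1391 higher, 849 lower, and 106 and 142 changed in rps2a2b but not in atprmt3. A mean of at least 20 CPM gave 159, 146, 0 and 7, and no filter gave 3096, 2135, 749 and 317. A fold threshold of 1.5 gave 1658, 1489, 202 and 234, and one of 4 gave 140, 27, 1 and 0. The level filters change the number of genes admitted, and the fold thresholds move only the limit of the call. Holding atprmt3 within 0.25 of Col left 16 and 25. Without either Col library in turn the counts were 563 to 589, 365 to 376, 28 to 29 and 41 to 43. The 2-fold rule with edgeR's quasi-likelihood test on all 4 libraries kept 560 and 375 genes, and with DESeq2's Wald test 469 and 325, but their spread comes from the Col libraries, which differed by no more than counting noise. Of the 27 and 42 genes, 18 and 25 were kept under all 5 scaling and single-Col settings. Single values were followed for the list medians, the 12 highest and 12 lowest genes, RPS2A, RPS2C, RPS2D and PRMT3. The genes changed in rps2a2b and not in atprmt3 were followed too, and other named genes were not. Some list medians moved in size. With total counts the antenna median went from -0.84 to -0.70 and the photosystem median from -0.57 to -0.43. Over genes with at least 90% unique sequence the antenna median was -0.71. The large-subunit ribosomal protein median of 0.51 became 0.64 with total counts and 0.38 with the length and GC trend removed. That last setting took the cuticle median from 1.16 to 0.99, under 2-fold. None of the followed values past 2-fold changed sign. List medians near 0 did: with total counts the salicylate median went from -0.09 to 0.05, with at least 1 CPM the cytokinin median from -0.22 to 0.13 and the senescence median from 0.14 to -0.19, and with the length and GC trend removed the nitrate median from -0.05 to 0.12. No paired analysis was possible because each mutant has 1 library. The main limits are that single library, the lack of any measure of variation between plants, and the low counts of most genes changed in rps2a2b alone.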

Other observations

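Gene families gathered by product name after seeing the values add to the lists above. Over all measured genes, 3.67% were at least 2-fold higher in rps2a2b and 2.45% lower. Of 39 measured peroxidase genes, 9 were higher and 2 lower, with a median log2 difference of 0.50 (0.47 in atprmt3). Of the 37 at 5 CPM or more in Col, 7 were higher, against 1.955% of all genes at that level. Of 13 oleosin genes, 10 had a higher CPM in rps2a2b than in Col and 2 a lower one. Of the genes encoded in the plastid, 64 of 133 were measured, 1 was higher and 2 lower. Their median was 0.07 in rps2a2b and -0.20 in atprmt3, and 0 of the 62 at 5 CPM or more in Col were higher. Of the genes encoded in the mitochondrion, 12 of 152 were measured, 0 were higher and 3 lower, with a median of -0.71, and in atprmt3 6 were lower. The summed level of all mitochondrion-encoded genes went the other way, from 935 CPM in Col to 1105 in atprmt3 and 1289 in rps2a2b.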
